A study of Homo sapiens with 8 samples.

Results

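Zinc and divalent metal transporters of the SLC30 and SLC39 families were followed in BEAS-2B, a line of immortalised cells from the human bronchial epithelium, during nickel exposure and after its end. The set consisted of 10 genes chosen by symbol among the 25411 genes listed in every library, 3 exporters (SLC30A1, SLC30A5 and SLC30A7) and 7 importers (SLC39A1, SLC39A4, SLC39A6, SLC39A8, SLC39A10, SLC39A13 and SLC39A14). Read counts came from 8 RNA-Seq libraries, 2 biological replicates in each of 4 groups, with between 26383920 and 45692298 reads counted per library. The question was how the expression of these carriers differed while nickel was present and long after it had been removed.

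All groups were BEAS-2B cells. Untreated cells (UT) received no nickel. Nickel-exposed cells (Ni-E) spent 6 weeks in medium with 100 µM of the soluble salt NiCl2. The washed-out cells (Ni-W) were exposed likewise, then plated sparsely so that colonies grew from single cells, and propagated in nickel-free medium for over 6 months. HCl3 cells were labelled with the same exposure and single-cell cloning as Ni-W, but the labels gave neither their time without nickel nor their relation to Ni-W. Ni-W was 1 population grown from 1 colony, and UT and Ni-E were not cloned. Nickel history and clonal origin therefore cannot be told apart in the comparisons of Ni-W or HCl3 with UT. In their comparisons with Ni-E, removal of nickel, clonal origin and, for Ni-W, over 6 months of further culture cannot be told apart. The labels assigned both Ni-E libraries to experiment 2 and the HCl3 libraries to experiments 3 and 4, and left UT and Ni-W unnumbered, so that experiment and group cannot be told apart either.

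SLC30 (ZnT) proteins move zinc out of the cytosol, across the plasma membrane or into organelles, and SLC39 (ZIP) proteins move it into the cytosol. Some ZIP proteins, SLC39A8 and SLC39A14 above all, also carry manganese, iron and cadmium. Free zinc in the cytosol is held low by metallothioneins, and the zinc-sensing transcription factor MTF1 acts at metal response elements, short promoter sequences found in metallothionein genes and in SLC30A1.

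The metal response element core, TGCACNC or TGCGCNC on either strand, was searched in RefSeq promoters (GRCh38.p14), each running from 250 bases before to 50 bases after a start site. Promoters were matched for 8 of the 10 genes, and not for SLC39A4 and SLC39A14. A core was found in 29.6% of all 35116 promoters, and 8.60% held 2 or more. SLC30A1 held 2 cores, beginning 49 bases before and 24 bases after its start site. SLC39A6 held 1 core, and SLC39A1, SLC39A8, SLC39A10 and SLC39A13 each held 1 core in only 1 of their several start site windows. No core was found in the windows of SLC30A5 and SLC30A7. A match describes the letters of a window and not a bound site. The promoter of SLC30A1 is shown as the only one with 2 cores, and those of SLC39A8 and SLC39A10 because these genes had the largest changes in the washed-out cells. Sequences run 5′ to 3′ on the transcribed strand with the core, or its reverse complement, in capitals. That of SLC30A1 lies at chr1:211579112-211579411 (minus strand), that of SLC39A8 at chr4:102345433-102345732 (minus strand), and that of SLC39A10 at chr2:195656976-195657275 (plus strand).
SLC30A1: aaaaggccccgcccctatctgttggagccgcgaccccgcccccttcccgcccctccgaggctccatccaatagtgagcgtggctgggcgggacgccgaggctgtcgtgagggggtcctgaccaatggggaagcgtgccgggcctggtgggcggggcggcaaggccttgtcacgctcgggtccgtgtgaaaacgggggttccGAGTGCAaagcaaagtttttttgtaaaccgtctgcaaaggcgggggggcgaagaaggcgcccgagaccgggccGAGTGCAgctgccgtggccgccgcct
SLC39A8: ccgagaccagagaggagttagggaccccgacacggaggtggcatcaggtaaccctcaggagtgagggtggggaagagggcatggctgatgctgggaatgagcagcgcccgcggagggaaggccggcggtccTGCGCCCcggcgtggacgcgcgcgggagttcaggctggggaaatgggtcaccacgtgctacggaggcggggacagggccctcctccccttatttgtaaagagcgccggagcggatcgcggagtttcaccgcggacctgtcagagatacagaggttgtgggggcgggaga
SLC39A10: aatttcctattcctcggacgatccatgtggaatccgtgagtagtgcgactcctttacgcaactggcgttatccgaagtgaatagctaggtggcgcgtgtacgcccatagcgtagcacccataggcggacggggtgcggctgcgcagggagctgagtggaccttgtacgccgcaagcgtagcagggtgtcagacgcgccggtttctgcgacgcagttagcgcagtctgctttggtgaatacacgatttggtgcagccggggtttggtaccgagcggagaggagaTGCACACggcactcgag

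Levels are given as RPKM, reads scaled to gene length and library size by the authors, and differences as log2 fold changes of counts fitted with DESeq2 (± SE), with P values adjusted over all genes tested in a comparison. Calls required an adjusted P value under 0.05 together with a change of at least 1.5-fold. All 10 transporters had enough reads to be tested in every comparison. In UT, the order of mean levels ran from SLC39A1 (58.5 ± 2.31 RPKM, SD, n = 2) through SLC39A14 (51.4 ± 1.68), SLC39A6 (49.0 ± 4.21), SLC39A13 (18.2 ± 2.50), SLC30A5 (18.0 ± 0.940), SLC30A1 (11.2 ± 1.52), SLC39A4 (11.1 ± 1.29), SLC39A10 (7.55 ± 0.325) and SLC30A7 (6.88 ± 0.573) down to SLC39A8 (0.295 ± 0.0919). Libraries overlapped between the neighbours SLC39A14 and SLC39A6, SLC39A13 and SLC30A5, and SLC30A1 and SLC39A4, so that these pairs were not ordered beyond their spread. Among the 10, SLC39A1 had the highest level in all 4 groups. SLC39A8 was last in UT, Ni-E and HCl3, and in Ni-W its libraries overlapped those of SLC30A7. Gene lengths implied by counts and RPKM were 749 to 762 bases for SLC39A4 and 2252 to 2280 for SLC30A1. Their longest GENCODE transcripts have 2778 and 5893 bases, so that the rank of these 2 genes depends on the gene model. For SLC39A8 the implied length differed between libraries, from 3040 to 3587 bases, so that its reads and RPKM were not in a fixed proportion.

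**Figure D1:**
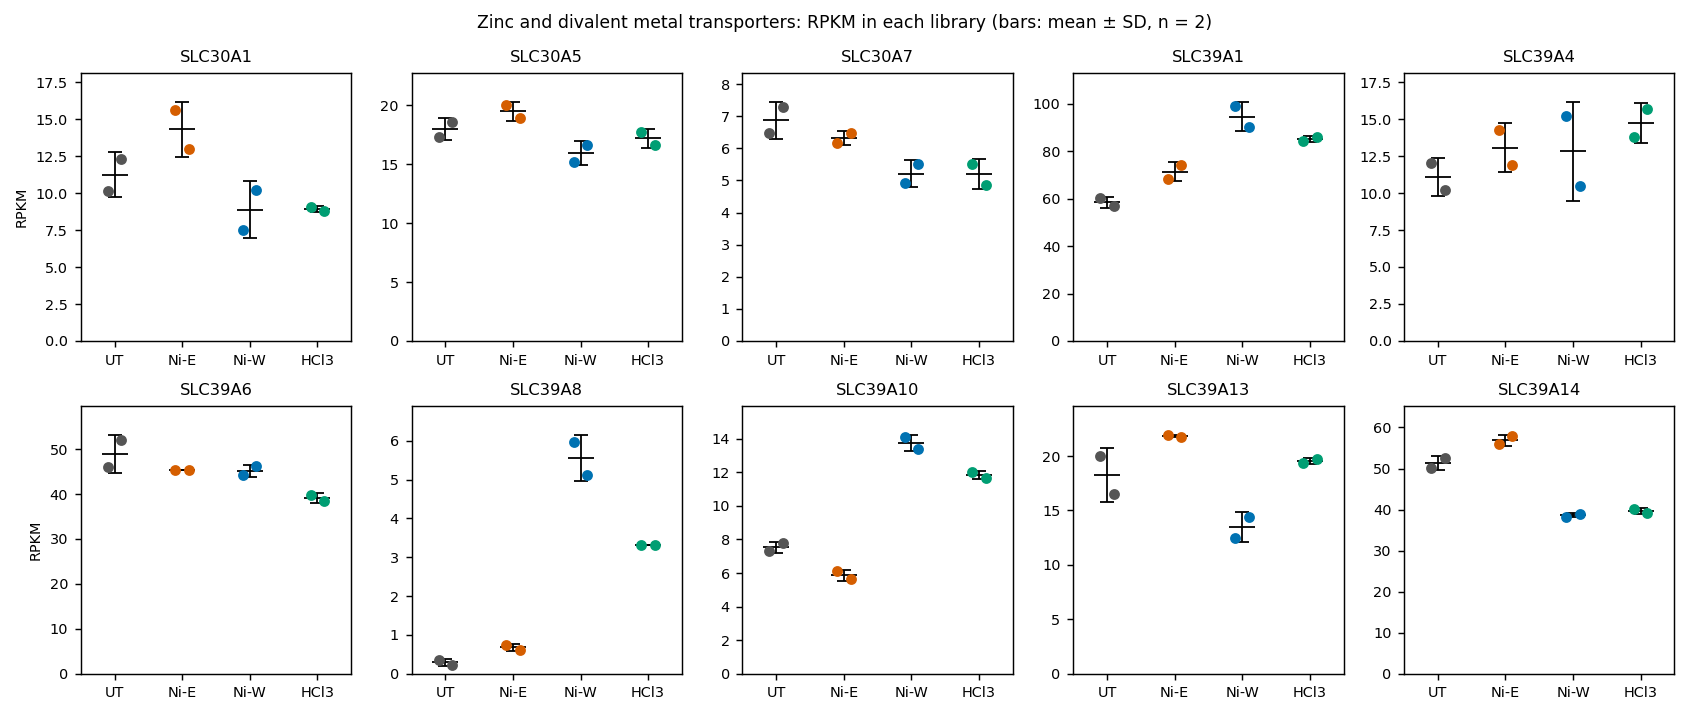
RPKM (vertical axes, linear, from 0, with a separate scale for each gene) of the 10 transporters in UT, Ni-E, Ni-W and HCl3 cells. Points are libraries and bars give the mean ± SD of n = 2. SLC39A8 lies between 0.23 and 0.75 RPKM in UT and Ni-E and between 3.31 and 5.98 RPKM in Ni-W and HCl3.

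SLC39A8 (ZIP8) had the largest change of the 10 genes in each comparison with UT. This importer of zinc, manganese, iron and cadmium sits at the plasma membrane, and its gene lies at chr4:103182821-103266655 on the minus strand (hg19). In UT it was measured at 0.36 and 0.23 RPKM, from 41 and 21 reads. The Ni-E libraries had 0.75 and 0.62 RPKM, from 91 and 75 reads. The Ni-W libraries had 5.98 and 5.13 RPKM, from 980 and 521 reads, and the HCl3 libraries 3.32 and 3.31 RPKM, from 413 and 450 reads. Every library of a group thus stood apart from those of the other groups, in the order UT, Ni-E, HCl3 and Ni-W. In a bulk sample, more cells that express a gene and more RNA per cell cannot be told apart. Against UT, SLC39A8 was 19.4-fold higher in Ni-W (a log2 difference of 4.28 ± 0.27, adjusted P = 3.94e-52, DESeq2) and 11.5-fold higher in HCl3 (3.53 ± 0.29, adjusted P = 1.37e-32, DESeq2). Against Ni-E it was 7.90-fold higher in Ni-W (2.98 ± 0.22, adjusted P = 7.67e-38, DESeq2) and 4.70-fold higher in HCl3 (2.23 ± 0.24, adjusted P = 4.28e-19, DESeq2). In HCl3 it was 1.68-fold lower than in Ni-W (-0.75 ± 0.16, adjusted P = 4.82e-05, DESeq2). Without HCl3 replicate 1 the adjusted P value of this last difference passed 0.05 while its size hardly moved (-0.71, adjusted P = 0.0579), and without Ni-W replicate 1 the change was smaller (-0.57, adjusted P = 0.0821). With limma the change was -0.60 on log2(RPKM + 1) (adjusted P = 0.0548) and -0.72 on log2(RPKM + 0.1) (adjusted P = 0.0562).

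The smaller difference of SLC39A8 between Ni-E and UT was called at 2.45-fold (1.29 ± 0.47, adjusted P = 0.0468, DESeq2), on few reads and close to the threshold. It was higher in both Ni-E libraries than in either UT library. Leaving out any single library ended the call, with an adjusted P value of 0.651 without Ni-E replicate 1, 0.361 without Ni-E replicate 2, 0.199 without UT replicate 1 and 0.530 without UT replicate 2, while the log2 fold change stayed between 1.10 and 1.54. It was not called by limma either, with a change of 0.38 on log2(RPKM + 1) (adjusted P = 0.113) and 1.01 on log2(RPKM + 0.1) (adjusted P = 0.152). Limma called 0 of all genes in this comparison with either pseudocount, where DESeq2 called 840 genes and edgeR 1044, SLC39A8 among them in both. With limma, 3 of the 10 transporters had an unadjusted P value under 0.05. The share of all genes under that value was not counted for limma, and was 23.8% with DESeq2 and 29.9% with edgeR.

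SLC39A10 (ZIP10), a zinc importer of the plasma membrane at chr2:196521852-196602426 (hg19, plus strand), was higher in the washed-out cells. It was measured at 7.32 and 7.78 RPKM in UT, against 6.11 and 5.65 for Ni-E, 14.10 and 13.41 for Ni-W, and 12.03 and 11.68 for HCl3. The libraries of no 2 groups overlapped. Against UT it rose 1.78-fold in Ni-W (0.83 ± 0.12, adjusted P = 2.73e-11, DESeq2) and 1.51-fold in HCl3 (0.60 ± 0.11, adjusted P = 6.71e-07, DESeq2). The HCl3 change lay at the edge of the fold threshold and fell under it without HCl3 replicate 1 (0.58) or UT replicate 1 (0.55). In Ni-E the difference from UT was -0.42 ± 0.14 (adjusted P = 0.0249, DESeq2), which did not reach 1.5-fold and became -0.25 (adjusted P = 0.174, DESeq2) once the libraries were corrected for trends with transcript length and GC content. With this correction the change in HCl3 against UT was 0.72 (adjusted P = 5.28e-15, DESeq2). The difference of HCl3 from Ni-W was -0.23 (adjusted P = 0.0430, DESeq2), and -0.12 (adjusted P = 0.413, DESeq2) with the correction. Against Ni-E the gene rose 2.35-fold in Ni-W (1.23 ± 0.11, adjusted P = 2.78e-25, DESeq2) and 2.00-fold in HCl3 (1.00 ± 0.11, adjusted P = 3.41e-19, DESeq2).

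SLC39A1 (ZIP1), a widely expressed zinc importer at chr1:153931575-153940660 (hg19, minus strand), had 60.17 and 56.91 RPKM in UT, against 68.46 and 74.12 for Ni-E, 98.95 and 90.20 for Ni-W, and 84.30 and 86.01 for HCl3. The groups did not overlap, and their order was UT, Ni-E, HCl3 and Ni-W, as for SLC39A8. It rose 1.57-fold in Ni-W against UT (0.65 ± 0.10, adjusted P = 7.37e-09, DESeq2). The difference of HCl3 from UT was 0.48 ± 0.092 (adjusted P = 2.55e-06, DESeq2), under the fold threshold, and that of Ni-E was 0.22 ± 0.11 (adjusted P = 0.188, DESeq2), or 0.058 (adjusted P = 0.784, DESeq2) after the length and GC correction. That of HCl3 from Ni-W was -0.17 ± 0.076 (adjusted P = 0.110, DESeq2), or -0.24 (adjusted P = 0.00135, DESeq2) after the correction. The steps from UT to Ni-E and from HCl3 to Ni-W were thus not called for SLC39A1. The microRNA gene MIR6737 overlaps SLC39A1 on the same strand, and it was the only overlap of a listed gene with any of the 10.

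SLC39A14 (ZIP14) carries the same range of metals as SLC39A8 and is its closest relative in the family. Its gene lies at chr8:22225050-22291640 (hg19, plus strand). It had 50.22 and 52.59 RPKM in UT, against 55.89 and 57.83 for Ni-E, 38.30 and 38.95 for Ni-W, and 40.15 and 39.09 for HCl3. All 4 washed-out libraries were below all UT and Ni-E libraries, while those of Ni-W and HCl3 differed from each other by less than 2 RPKM. The changes against UT were -0.45 ± 0.10 in Ni-W (adjusted P = 5.14e-05, DESeq2) and -0.43 ± 0.090 in HCl3 (adjusted P = 1.64e-05, DESeq2), and neither reached 1.5-fold. Against Ni-E they were -0.55 ± 0.087 in Ni-W (adjusted P = 2.75e-09, DESeq2) and -0.53 ± 0.075 in HCl3 (adjusted P = 1.84e-11, DESeq2). The difference between Ni-W and Ni-E passed 1.5-fold (-0.60) after the length and GC correction. The ratio of SLC39A14 to SLC39A8, both in RPKM, was 140 and 229 in UT, against 74.5 and 93.3 for Ni-E, 6.40 and 7.59 for Ni-W, and 12.1 and 11.8 for HCl3.

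SLC39A13 (ZIP13), an importer of the Golgi and vesicles whose loss causes a connective tissue disorder, was lowest in Ni-W. Its gene lies at chr11:47430046-47438051 (hg19, plus strand). It had 20.01 and 16.47 RPKM in UT, against 21.93 and 21.79 for Ni-E, 12.47 and 14.44 for Ni-W, and 19.32 and 19.77 for HCl3. Both Ni-W libraries were below all others, and those of HCl3 lay between the 2 UT libraries. It fell 1.62-fold in Ni-W against Ni-E (-0.70 ± 0.12, adjusted P = 1.20e-07, DESeq2). Its longest transcript had a GC content of 62.8%, the highest of the 10, and the change was -0.51 after the same correction, under 1.5-fold. Against UT, the change in Ni-W was -0.48 ± 0.14 (adjusted P = 0.00418, DESeq2), which missed 1.5-fold but passed it without Ni-W replicate 2 (-0.59) or without UT replicate 2 (-0.61). SLC39A13 also differed between the washed-out populations, with 0.53 ± 0.11 in HCl3 against Ni-W (adjusted P = 2.50e-05, DESeq2). This too missed 1.5-fold and passed it without Ni-W replicate 2 (0.64). Over 13836 genes, changes in that comparison were higher at higher GC content (Spearman's rho = 0.339, a description across genes), and the change of SLC39A13 was 0.36 (adjusted P = 0.00467, DESeq2) after the correction.

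The remaining importers were called in no comparison. SLC39A6 (LIV-1), a zinc importer of the plasma membrane at chr18:33690963-33709357 (hg19, minus strand), had 46.03 and 51.98 RPKM in UT, against 45.44 and 45.36 for Ni-E, 44.22 and 46.17 for Ni-W, and 39.85 and 38.37 for HCl3. Only HCl3 stood apart, with a difference from UT of -0.38 ± 0.10 (adjusted P = 0.000782, DESeq2). SLC39A4 (ZIP4), the intestinal zinc importer mutated in acrodermatitis enteropathica, lies at chr8:145637798-145642279 (hg19, minus strand). Its levels were 12.02 and 10.20 RPKM in UT, against 14.24 and 11.91 for Ni-E, 15.18 and 10.45 for Ni-W, and 13.79 and 15.71 for HCl3. The Ni-W libraries of SLC39A4 spanned nearly the whole range of the other groups, and the 95% interval of the log2 fold change against UT ran from -0.28 to 0.63 in Ni-W and from -0.021 to 0.75 in HCl3.

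Among the exporters, SLC30A1 (ZnT1) showed the widest contrast between exposed and washed-out cells. It is the main zinc exporter of the plasma membrane and a known target of MTF1, and its gene lies at chr1:211748381-211752099 (hg19, minus strand). It had 10.17 and 12.32 RPKM in UT, against 15.64 and 13.01 for Ni-E, 7.52 and 10.24 for Ni-W, and 9.09 and 8.81 for HCl3. Both Ni-E libraries were above all others. The difference of Ni-E from UT was 0.30 ± 0.17 (adjusted P = 0.266, DESeq2), that of Ni-W from UT -0.38 ± 0.18 (adjusted P = 0.0971, DESeq2), and that of HCl3 from UT -0.38 ± 0.15 (adjusted P = 0.0350, DESeq2, under 1.5-fold). After the length and GC correction, the difference of Ni-E from UT was 0.46 (adjusted P = 0.0203, DESeq2) and that of Ni-W from UT was -0.39 (adjusted P = 0.0393, DESeq2), both still under 1.5-fold. Over 13197 genes, changes in Ni-E against UT were higher at higher GC content (Spearman's rho = 0.354). Against Ni-E, SLC30A1 fell 1.61-fold in Ni-W (-0.69 ± 0.17, adjusted P = 0.000307, DESeq2) and 1.62-fold in HCl3 (-0.69 ± 0.14, adjusted P = 7.29e-06, DESeq2). Both calls needed Ni-E replicate 1, the highest library: without it the change was -0.53 in both (adjusted P = 0.0638 in Ni-W and 0.00750 in HCl3, DESeq2). The call in Ni-W was also lost without Ni-W replicate 1 (-0.48, adjusted P = 0.114) and with limma, where the size of the change was kept, at -0.64 on log2(RPKM + 1) (adjusted P = 0.0721) and -0.69 on log2(RPKM + 0.1) (adjusted P = 0.0786).

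SLC30A5 (ZnT5) and SLC30A7 (ZnT7) load zinc into the early secretory pathway, where enzymes such as alkaline phosphatase receive it. SLC30A5, at chr5:68389776-68426899 (hg19, plus strand), had 17.29 and 18.62 RPKM in UT, against 20.05 and 18.93 for Ni-E, 15.22 and 16.64 for Ni-W, and 17.73 and 16.63 for HCl3. Its log2 fold changes against UT lay between -0.19 and 0.047, with none past an adjusted P value of 0.05. SLC30A7, at chr1:101361634-101447311 (hg19, plus strand), had 6.47 and 7.28 RPKM in UT, against 6.16 and 6.48 for Ni-E, 4.91 and 5.51 for Ni-W, and 5.52 and 4.86 for HCl3. All 4 washed-out libraries were below those of UT and Ni-E. The changes against UT were -0.44 ± 0.13 in Ni-W (adjusted P = 0.00333, DESeq2) and -0.46 ± 0.12 in HCl3 (adjusted P = 0.000898, DESeq2), under 1.5-fold in both.

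**Figure D2:**
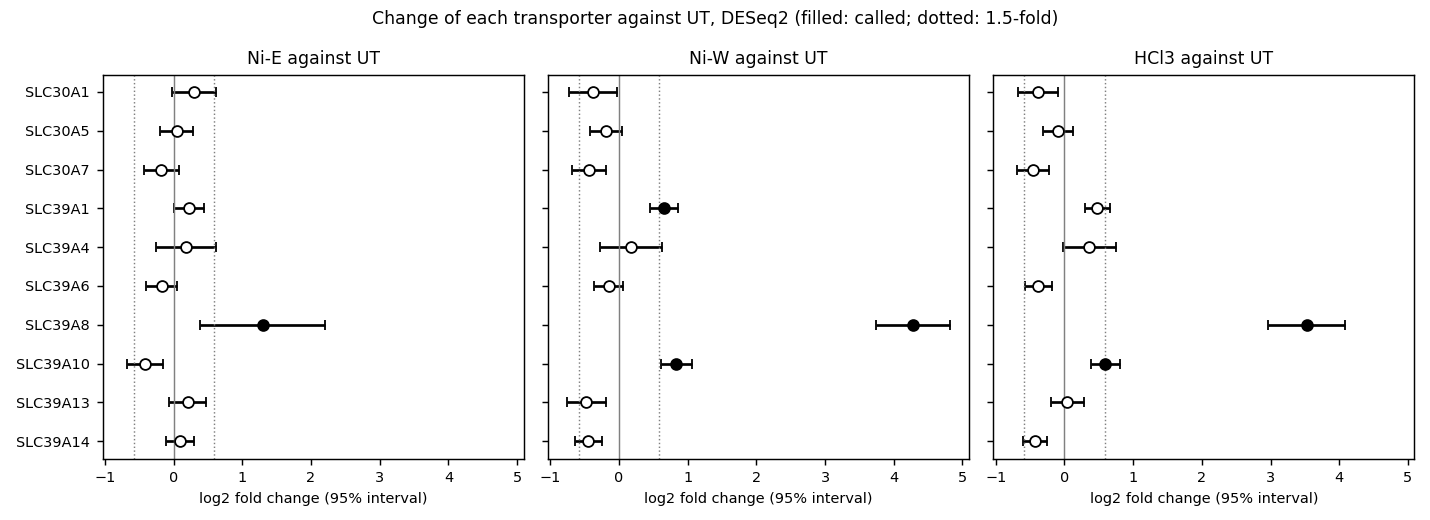
Log2 fold changes of the 10 transporters (horizontal axis, DESeq2) in Ni-E, Ni-W and HCl3 against UT. Points are estimates from 2 against 2 libraries, bars are 95% intervals, filled points were called and dotted lines mark 1.5-fold. SLC39A8 stands apart at 4.28 in Ni-W and 3.53 in HCl3, and the remaining genes lie between -0.48 and 0.83.

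The 10 genes were chosen with earlier results of these data known, so that the counts below are descriptions only. Counted over the set, 1 of the 10 genes was called higher in Ni-E than in UT (SLC39A8) and 0 lower. Of 14140 genes tested, 3.84% were higher and 2.10% lower. In Ni-W, 3 were higher than in UT (SLC39A1, SLC39A8 and SLC39A10) and 0 lower, beside 11.1% and 4.95% of 15477 genes. In HCl3, 2 were higher (SLC39A8 and SLC39A10) and 0 lower, beside 11.4% and 3.84% of 15421 genes. Against Ni-E, 2 genes were higher in Ni-W and 2 lower, beside 12.0% and 9.04% of 15638 genes, and 2 were higher in HCl3 and 1 lower, beside 10.6% and 6.95% of 15603 genes. Between HCl3 and Ni-W, 0 genes were higher and 1 lower in HCl3, beside 3.18% and 1.72% of 14605 genes. The comparisons with UT share the UT libraries, and their values are set side by side only. At an unadjusted P value under 0.05 with no fold threshold, DESeq2 counted 3 of the 10 for Ni-E, 7 for Ni-W and 7 for HCl3 against UT, beside 23.8, 39.7 and 40.5% of all genes tested, and edgeR counted 2, 7 and 8, beside 29.9, 49.5 and 51.2%. The median log2 fold change of the 10 genes against UT was 0.13 for Ni-E, -0.17 for Ni-W and -0.027 for HCl3, beside medians of -0.0024, 0.0058 and 0.0073 over all genes tested. An exact permutation test of 2 against 2 libraries cannot go below P = 0.333 (two-sided) for a single gene, and the P values above rest on a spread shared across genes.

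Summed over the 7 importers, the level was 196 and 196 RPKM in UT, against 213 and 217 for Ni-E, 229 and 219 for Ni-W, and 213 and 214 for HCl3. The 3 exporters summed to 33.9 and 38.2 RPKM in UT, against 41.8 and 38.4 for Ni-E, 27.7 and 32.4 for Ni-W, and 32.3 and 30.3 for HCl3. The importer sums of UT were below those of all other groups, and the exporter sums of Ni-W and HCl3 were below those of UT and Ni-E. Within the 7 importers, SLC39A1 made up 30.7 and 29.0% of the RPKM in UT and 43.2 and 41.2% in Ni-W. SLC39A14 made up 25.6 and 26.8% in UT and 16.7 and 17.8% in Ni-W. SLC39A8 made up 0.184 and 0.117% in UT and 2.61 and 2.35% in Ni-W, so that it remained a minor part of the 7 after its rise. SLC39A7, which is not among the 7, had 79.2 and 75.6 RPKM in UT, above SLC39A1, and 75.5 and 74.8 in Ni-W. These shares therefore hold for the 7 genes and not for all SLC39 RNA.

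Positions were compared because the washed-out cells were clonal and neighbouring genes can differ together. For each transporter, the median log2 fold change was taken over the genes with a mean normalised count of at least 50 within 5 Mb on each side. Around SLC39A8, 23 such genes had a median of -0.15 in Ni-W and -0.18 in HCl3 against UT, opposite in sign to the gene itself, which exceeded them by 4.43 and 3.70. Around SLC39A10, 26 genes had a median of 0.34 in Ni-W and 0.27 in HCl3, and the gene exceeded them by 0.49 and 0.32. Around SLC39A1, 145 genes had a median of 0.25 in Ni-W, and in HCl3 144 genes had a median of 0.017. SLC39A1 exceeded them by 0.40 in Ni-W and by 0.46 in HCl3. Around SLC30A7, 17 genes had a median of -0.33 in Ni-W and -0.30 in HCl3, and the gene differed from them by -0.10 and -0.15. With 10 Mb on each side, 75 genes had a median of -0.15 and -0.19, and the gene differed from them by -0.29 and -0.26. Around SLC30A1 and SLC39A14 the neighbours had a median of 0.25 and 0.034 in Ni-W, and the genes differed from them by -0.63 and -0.48. In HCl3 these medians were 0.032 and 0.21, and the differences -0.41 and -0.64. The part of local dosage in these values was not tested.

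**Figure D3:**
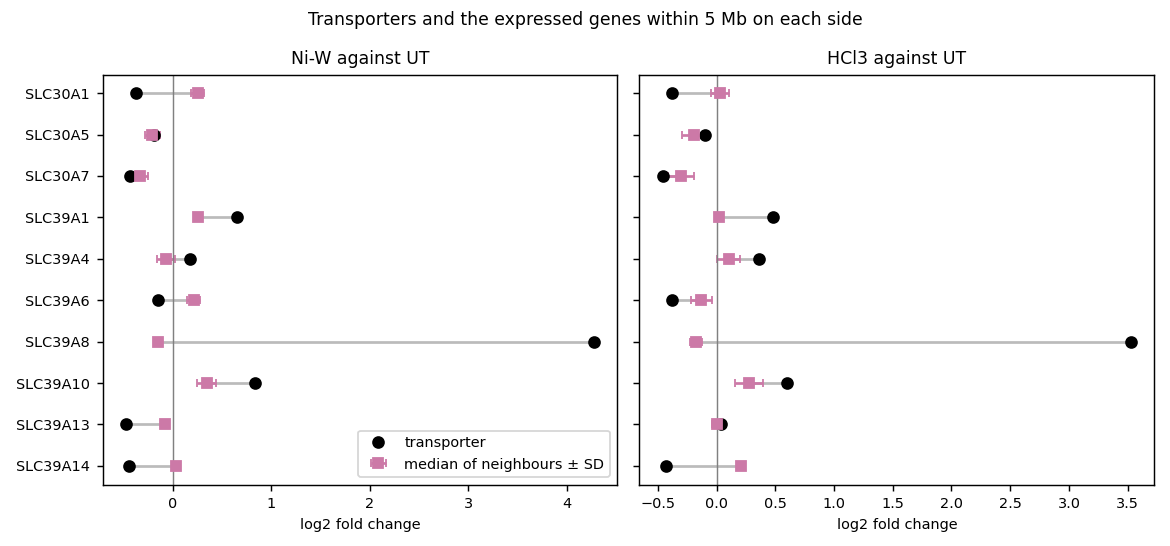
Log2 fold change against UT (horizontal axes, on separate scales) of each transporter (black points) and the median of expressed genes within 5 Mb on each side (squares, with bars giving the SD over pairs of libraries). SLC39A8 lies at 4.28 in Ni-W beside a median of -0.15 for its neighbours.

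The other genes of zinc and divalent metal handling were taken from 3 lists. Of 14 further SLC30 and SLC39 genes, 8 were tested in each comparison with UT. SLC30A3 (ZnT3), which fills synaptic vesicles with zinc in neurons, was the only one called against UT, higher in all 3 groups, which is 1 of 8 beside the 3.84, 11.1 and 11.4% of all genes called higher. It had 0.54 and 0.28 RPKM in UT, from only 48 and 17 reads. Ni-E had 1.05 and 1.22, Ni-W 1.55 and 1.77, and HCl3 1.33 and 1.58 RPKM. The log2 fold changes were 1.40 ± 0.47 in Ni-E (adjusted P = 0.0309), 1.96 ± 0.41 in Ni-W (adjusted P = 1.78e-05) and 1.75 ± 0.42 in HCl3 (adjusted P = 0.000192, DESeq2). SLC30A4, named after its values were seen, was called against Ni-E only, at 0.75 ± 0.24 in Ni-W (adjusted P = 0.00658, DESeq2) and 0.80 ± 0.24 in HCl3 (adjusted P = 0.00308, DESeq2).

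Of 21 other carriers of divalent metals, 0 of 17 tested were called in Ni-E against UT, 2 of 17 were higher and 1 lower in Ni-W, and 1 of 18 was higher in HCl3. These shares lie near or under those of all genes, 11.1% higher and 4.95% lower in Ni-W and 11.4% higher in HCl3. SLC40A1 (ferroportin), the iron exporter, rose from 0.27 and 0.21 RPKM in UT to 1.54 and 1.64 in Ni-W (2.66 ± 0.35, adjusted P = 6.00e-13, DESeq2) and 1.33 and 1.39 in HCl3 (2.41 ± 0.35, adjusted P = 2.08e-10, DESeq2). Its Ni-E libraries had 0.07 and 0.19 RPKM, from 9 and 24 reads, and its UT libraries had 39 and 21 reads. NIPA1, a magnesium transporter, rose from 8.01 and 8.68 RPKM in UT to 13.13 and 13.87 in Ni-W (0.66 ± 0.11, adjusted P = 1.27e-07, DESeq2). Its HCl3 libraries had 13.11 and 12.17 RPKM, a change just under 1.5-fold (0.55 ± 0.11, adjusted P = 4.07e-06, DESeq2). CNNM1, of a family tied to magnesium transport, had 0.92 and 0.92 RPKM in UT and 0.27 and 0.27 in Ni-W (-1.81 ± 0.29, adjusted P = 1.53e-08, DESeq2). In HCl3 it had 0.81 and 0.77 RPKM, not called against UT (-0.28 ± 0.23, adjusted P = 0.395, DESeq2) and exceeded the Ni-W level 2.89-fold (1.53 ± 0.28, adjusted P = 1.69e-06, DESeq2). The channel kinase TRPM7, named after its values were seen, was called against Ni-E only, in Ni-W (0.77 ± 0.11, adjusted P = 3.31e-11, DESeq2).

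Among 12 genes of zinc buffering and sensing, 2 of 5 tested rose in Ni-E against UT, 1 of 6 fell in Ni-W and 1 of 6 rose in HCl3, beside 3.84% of all genes higher in Ni-E, 4.95% lower in Ni-W and 11.4% higher in HCl3. The metallothionein MT1E had 29.5 and 17.6 RPKM in UT, against 52.0 and 59.6 for Ni-E, 11.9 and 7.89 for Ni-W, and 16.5 and 16.8 for HCl3. It rose in Ni-E (1.18 ± 0.21, adjusted P = 1.57e-06, DESeq2) and fell in Ni-W (-1.29 ± 0.27, adjusted P = 1.46e-05, DESeq2). MT2A, with 292 and 207 RPKM in UT and 397 and 496 in Ni-E, rose in Ni-E (0.78 ± 0.16, adjusted P = 3.19e-05, DESeq2). MT1F rose in HCl3 (1.23 ± 0.44, adjusted P = 0.0193, DESeq2), from 1.82 and 2.00 RPKM (34 and 26 reads) to 5.17 and 4.11. Metallothionein genes are similar in sequence, and reads with several alignments had been removed, so their counts are uncertain.

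**Figure D4:**
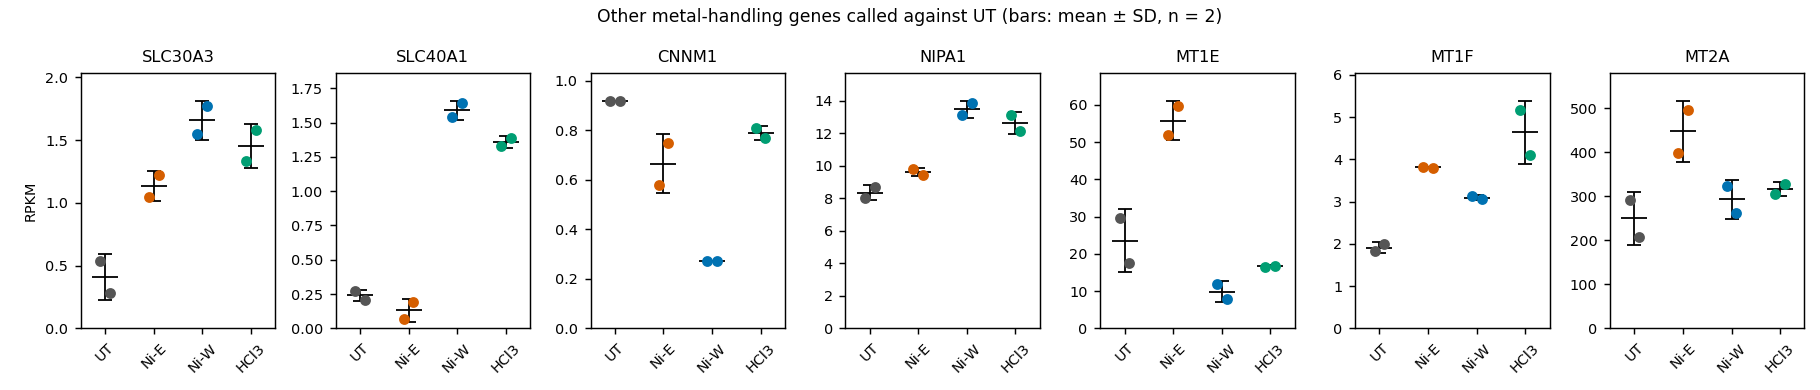
RPKM (vertical axes, linear, from 0, with a separate scale for each gene) of the other metal-handling genes called against UT. Points are libraries and bars give the mean ± SD of n = 2. SLC40A1 lies between 0.07 and 0.27 RPKM in UT and Ni-E and between 1.33 and 1.64 RPKM in Ni-W and HCl3.

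For each transporter called against UT, the genes with the most similar profile over the 8 libraries were found by Pearson's r of log2 normalised counts among 12015 genes. These coefficients describe 4 groups of 2 libraries and carry no test. SLC39A8 was followed most closely by TMED3 (r = 0.997), ARRDC3 (0.995) and HIST2H2BE (0.994). In UT, Ni-E, Ni-W and HCl3, TMED3 had group means of 27.1, 34.3, 52.1 and 47.7 RPKM. ARRDC3 had 2.005, 2.79, 5.46 and 4.92, and HIST2H2BE 0.600, 1.04, 5.31 and 3.81 RPKM. The coefficient takes no account of the size of a change. SLC39A10 was followed by SERPINB9 (0.996), TMCO3 (0.995) and LGALS8 (0.994), and SLC39A1 by FSTL3 (0.994), PTK7 (0.992) and SNX1 (0.988).

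The label of the cells was compared with markers. KRT7, KRT8 and KRT18, keratins of simple epithelia, reached 144 to 481 RPKM in all libraries, while CDH1 stayed at or below 0.11 and KRT5 at or below 0.03. The 7 epithelial genes summed to between 602 and 636 RPKM in UT, against 579 and 794 for Ni-E, 947 and 972 for Ni-W, and 935 and 996 for HCl3. Almost all of it was KRT7, KRT8 and KRT18, while EPCAM stayed between 0.95 and 1.79 RPKM. This sum was higher in the washed-out cells, as were SLC39A8 and SLC39A10. The higher Ni-E library also exceeded UT, although SLC39A10 was lower in Ni-E than in UT. The 5 genes of differentiated airway cells summed to no more than 0.29 RPKM, with MUC5B and SFTPC at 0. The 6 fibroblast genes summed to 514 to 580 RPKM in UT, 325 to 500 in Ni-E, 398 to 413 in Ni-W and 641 to 670 in HCl3, almost all of it COL1A1, THY1 and PDGFRB. The 5 blood and vessel genes summed to between 14.4 and 21.8 RPKM over all libraries, almost all of it CD68, with CD3E at 0 and PTPRC at or below 0.04. The part of these differences in the transporter values was not tested.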

How the data were processed

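RNA-Seq was performed by the authors on BEAS-2B cells, with 2 biological replicates per group. The reads were aligned to the human genome (hg19) with STAR 2.4, reads with several alignments were removed, and the deposited read counts per RefSeq gene and the deposited RPKM values were obtained by the authors with the BioWardrobe system. Use of the read strand in counting was not stated. Groups were taken from the labels.

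Counts of each pair of groups were tested with DESeq2 1.42.0 (two-sided Wald test, Benjamini-Hochberg adjustment) in R 4.3.3, with the 4 libraries of the pair. A call required an adjusted P value under 0.05 and at least 1.5-fold. The level given by 3 reads was computed as a reference for low values and was not applied to any value or test. It was between 6.57e-06 and 1.14e-05% of the reads of a library, for counting error only. GC content and length were available for 98.3% of expressed genes. The scripts were tested on simulated data. Alternatives were edgeR 4.0.16, limma 3.58.1 on log2-transformed RPKM values, TMM size factors, a mean count of at least 10, all 8 libraries in one fit, other fold thresholds, the replicate suffix as a block, removal of GC and length trends, each library left out, and windows of 10 Mb. The crossed block was added after the data were seen.

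The members and lists were chosen with earlier results of these data known. Genes named are all 10 members, the listed genes called against UT, and the 3 genes most like each called member. SLC30A4, SLC39A7 and TRPM7 fall outside this rule and were named after their values were seen. A planned search of protein sequences was not run, because no protein table was used here. Figures were drawn with matplotlib 3.10.9.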

Additional observations from a re-analysis of the deposited data

Results flagged for a closer look

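SLC39A8 differed between the washed-out populations, which the labels describe with the same exposure and cloning. Its log2 fold change in HCl3 against Ni-W was -0.75 ± 0.16 (adjusted P = 4.82e-05, DESeq2), with both HCl3 libraries, at 3.32 and 3.31 RPKM, below both Ni-W libraries, at 5.98 and 5.13 RPKM. The call was lost without HCl3 replicate 1, where the change was -0.71 (adjusted P = 0.0579, DESeq2), and without Ni-W replicate 1, where it was -0.57 (adjusted P = 0.0821, DESeq2). Groups of 2 libraries were not examined for single outlying libraries.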

How the results depend on the processing

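Transporters called in Ni-E against UT numbered 1 (SLC39A8), beside 3.84% of all genes tested called higher and 2.10% lower. This call was lost with limma on log2(RPKM + 1) or log2(RPKM + 0.1) and with the replicate block. It was also lost with the block and GC and length trends removed, with the crossed replicate block, and without each library in turn. SLC39A8, the gene in question, kept the size of its change, at 1.31 with the block (adjusted P = 0.275, DESeq2), 1.36 with the block and the correction (adjusted P = 0.292) and 1.30 with the crossed block (adjusted P = 0.187). Without a fold threshold the counts against UT became 2 in Ni-E, 6 for Ni-W and 7 for HCl3, beside 11.9, 31.9 and 32.3% of all genes tested, then 8 in Ni-W and 7 in HCl3 against Ni-E, beside 40.3 and 38.6%, and 4 in HCl3 against Ni-W, beside 17.1%. At 2-fold they became 1 in Ni-W and 1 in HCl3 against UT, beside 8.87 and 8.57%, 2 in Ni-W and 1 in HCl3 against Ni-E, beside 10.4 and 8.84%, and 0 in HCl3 against Ni-W, beside 2.53%, where limma also gave 0 with either pseudocount. The counts in HCl3 against UT and in HCl3 against Ni-W also changed in fits without single libraries. The share of all genes called in those fits was not taken, so their counts are not given. No call changed direction, and 30 of 688 values of uncalled transporters changed sign. With windows of 10 Mb, the neighbours' median for SLC30A7 became -0.081 for Ni-E, -0.15 for Ni-W and -0.19 for HCl3. In Ni-W it became 0.38 for SLC30A1, -0.11 for SLC39A13 and -0.035 for SLC39A14, and in HCl3 -0.25 for SLC39A8 and -0.018 for SLC39A14. Libraries with the same replicate suffix had deviations with an r of -0.116 in Ni-E and UT, 0.222 in Ni-W and UT, -0.159 in HCl3 and UT, and -0.107 in Ni-W and Ni-E, so that the suffix was not taken as a pairing. Low read numbers limit SLC39A8 and SLC40A1 in UT and Ni-E, and SLC30A3 and MT1F in UT. Fits without single libraries were summarised for the 10 transporters only, and 2 libraries per group limit every value. The cause of these changes was not tested.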
